A study of Mus musculus with 8 samples.

Results

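The 10 genes described here encode galectin-1 (Lgals1), the giant membrane-associated scaffold protein Ahnak, 4 calcium-binding S100 proteins (S100a4, S100a6, S100a10 and S100a11), vimentin (Vim), annexin A2 (Anxa2), the membrane protein Emp3 and the LIM-domain protein Crip1. They are 10 of the 24505 gene rows of the count table. They were chosen by symbol, because Lgals1 was lower with Runx1 DN and with Satb1 in these same data. The members' differences between these groups and mock are therefore given as a description without a test, and so is Lgals1's own difference between Satb1 and Runx1 DN. Tests are given for Runx1 WT against mock and, for the members other than Lgals1, for Satb1 against Runx1 DN. Both share libraries with the comparisons behind the choice.

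The RNA came from Scid.adh.2c2 cells, a line of mouse pro-T cells, and was sequenced as 8 libraries in 4 groups of 2. The cells received a mock retrovirus with GFP, or a retrovirus with Runx1 WT (the wild-type gene), with a construct labelled Runx1 DN, or with Satb1, and infected cells were sorted 2 days later. DN is not spelled out in the labels and usually stands for dominant negative in work on Runx proteins. Each group is this 1 cell line, and the groups other than mock have Runx1 or Satb1 added at a high level. Nothing in the labels marks the replicates as separate infections. The p-values therefore cover the spread between these libraries alone, and that spread may be technical.

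Galectin-1 is a secreted lectin that binds galactose-containing glycans on T cell surface glycoproteins, among them CD45, CD43, CD7 and CD2, and it is known for promoting the death of thymocytes and activated T cells. S100 proteins are small calcium sensors that bind partner proteins, and S100A10 pairs with annexin A2 in a complex at the plasma membrane that also holds AHNAK. In T cells, many of these genes are known for higher expression in effector and memory cells than in naive cells.

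Library totals ran from 23624498 to 33093330 counts, and 3 counts, the limit that a count of 0 allows, equal 0.0953 to 0.125 CPM (TMM-scaled counts relative to the library total). Of the table's genes, 12699 passed the filter on low counts and were tested. The Runx1 row was 59.7-fold higher than mock in Runx1 WT and 170-fold higher in Runx1 DN, and the Satb1 row was 9.93-fold higher in Satb1. Of the 12 T lineage marker genes, all had counts in each library, but their levels differed between groups. With Runx1 WT, 7 were called higher and 4 lower, beside 38.9% and 31.8% of all tested genes. With Runx1 DN, 2 were called higher and 9 lower (median log2 -1.4), beside 17.5% and 16.9%. With Satb1, 6 were called higher and 0 lower, beside 3.28% and 3.09%. The glycolysis and hypoxia genes differed between the libraries of a group in mock and in Satb1, with a higher summed level in replicate 2 of both. With Runx1 WT, 20 of the 21 were called lower (12 with robust empirical Bayes), beside 31.8% of all tested genes. With Runx1 DN, 15 were called lower, beside 16.9% of all tested genes, and with Satb1 0, beside 3.09%. Their summed level was 14400 and 25000 CPM for mock and 9770 and 20900 CPM for Satb1. It was 4890 and 4470 CPM for Runx1 WT and 7980 and 8020 CPM for Runx1 DN.

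Lgals1 was by far the most abundant of the 10 genes, rose with Runx1 WT and was lower than mock in Runx1 DN and Satb1. The mock libraries stood at 220 and 217 CPM, Runx1 WT at 1090 and 942, Runx1 DN at 48.7 and 55.9 and Satb1 at 109 and 106. No group overlapped another, and the order ran from Runx1 WT through mock and Satb1 down to Runx1 DN. Lgals1 rose 4.64-fold with Runx1 WT (log2 fold change 2.22 ± 0.092 SE, edgeR quasi-likelihood test, adjusted p = 3.4e-08). Relative to mock, its log2 difference was -2.06 ± 0.093 (SE) in Runx1 DN and -1.02 ± 0.09 in Satb1, where the ratio of summed counts to mock was 0.494. Satb1 cells stood 2.06-fold above Runx1 DN cells (log2 1.04 ± 0.092 SE). In bulk RNA, fewer cells that express a gene and less RNA per cell cannot be told apart.

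Per kilobase of exon, Lgals1 ranked 17 and 16 among all rows of the table in the Runx1 WT libraries. In mock it ranked 259 and 271, in Satb1 549 and 583, and in Runx1 DN 1400 and 1143. Lgals1 lies on chromosome 15 (78757155 to 78760895, plus strand, mm9). The genes on either side did not share its rise. Pdxp, 7207 bp before it, was lower with Runx1 WT (log2 -0.53 ± 0.12 SE, adjusted p = 0.00331), and so was Nol12, 4467 bp after it (log2 -0.77 ± 0.1 SE, adjusted p = 6.58e-05).

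**Figure D1:**
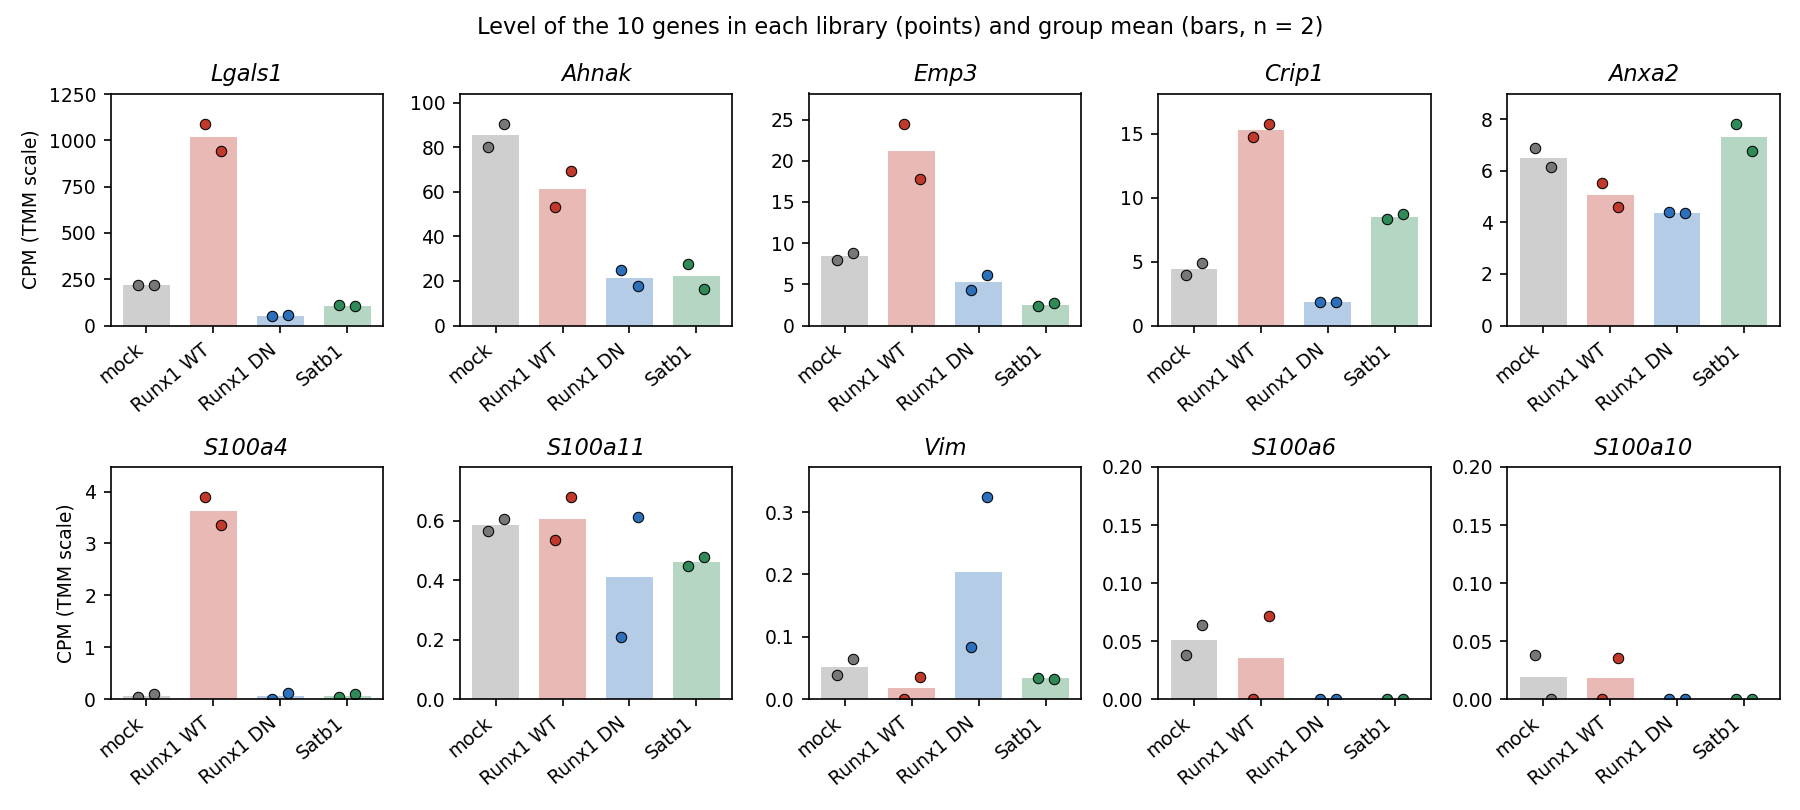
Level of each of the 10 genes in CPM on the TMM scale (vertical axes, linear from 0, a different range in each panel) in the 8 libraries, with points for libraries and bars for the mean of 2. Lgals1, Emp3, Crip1 and S100a4 stand highest in Runx1 WT, Ahnak stands highest in mock, and S100a6, S100a10 and Vim are close to 0 in most libraries.

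Crip1, a small LIM-domain protein, rose with Runx1 WT as well but differed from Lgals1 in Satb1 cells. The mock libraries stood at 3.97 and 4.88 CPM, Runx1 WT at 14.8 and 15.8, Runx1 DN at 1.83 and 1.84 and Satb1 at 8.35 and 8.71. The groups did not overlap, and their order was Runx1 WT, Satb1, mock and Runx1 DN. Crip1 rose 3.44-fold with Runx1 WT (log2 1.78 ± 0.14 SE, edgeR adjusted p = 1.57e-06). The difference from mock was -1.28 ± 0.17 (log2, SE) in Runx1 DN and 0.94 ± 0.14 in Satb1, the sign opposite to that of Lgals1. Between Satb1 and Runx1 DN, Crip1 differed 4.64-fold (log2 2.22 ± 0.16, adjusted p = 4.77e-06). Its relative Crip2 lies 6505 bp before it and did not pass the test with Runx1 WT (log2 -0.46, edgeR adjusted p = 0.0712), and it rose with Runx1 DN (log2 0.71, adjusted p = 0.0185), where Crip1 was below mock. The call on Crip2 in Runx1 DN was lost without mock replicate 2 and without either Runx1 DN library.

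Emp3, a tetraspan membrane protein of the PMP22 family, was highest in Runx1 WT and lowest in Satb1. The mock libraries stood at 7.98 and 8.84 CPM, Runx1 WT at 24.5 and 17.8, Runx1 DN at 4.28 and 6.19 and Satb1 at 2.34 and 2.73. Again no group overlapped another, although the Runx1 DN libraries lay 1.45-fold apart and the Runx1 WT libraries 1.38-fold apart. Emp3 rose 2.51-fold with Runx1 WT (log2 1.33 ± 0.19 SE, edgeR adjusted p = 0.000132). Its log2 difference from mock was -0.68 ± 0.21 (SE) in Runx1 DN and -1.73 ± 0.23 in Satb1. Satb1 cells had less Emp3 than Runx1 DN cells (log2 -1.05 ± 0.24 SE, adjusted p = 0.0064), which for Lgals1 and Crip1 was the other way round. Without Runx1 DN replicate 2 this call was lost (log2 -0.75, adjusted p = 0.0624), and it was also lost with quantile normalization (log2 -0.78, adjusted p = 0.0716).

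The RefSeq promoter table of GRCm38.p6 matched 8 of the 10 genes. Lgals1 and S100a10 had no entry. In the 250 bases before each start, the core motif bound by Runx proteins was searched as TGTGGT and TGCGGT and, for the other strand, ACCACA and ACCGCA. Of 32851 such windows in the table, 18.6% held a match and 0.161% held 3 or more. Of the 9 windows of the 8 genes, 2 held a match. Emp3 has 2 starts in the table, and the match lay 56 bases before the start printed here. S100a6, whose counts were near 0, held 3 matches, at 217, 145 and 79 bases before its start. No match lay in the windows of Anxa2, Ahnak, S100a4, S100a11, Vim or Crip1, nor before the other start of Emp3. A match describes letters, not binding, and none means only that these letters are not in this window. The windows of 4 genes are shown, 5′ to 3′ on the gene's strand with matches in capitals: those of Emp3, Crip1 and S100a4, which rose with Runx1 WT, and that of S100a6, which lies near S100a4.
Emp3, chr7:45920850-45921099, minus strand: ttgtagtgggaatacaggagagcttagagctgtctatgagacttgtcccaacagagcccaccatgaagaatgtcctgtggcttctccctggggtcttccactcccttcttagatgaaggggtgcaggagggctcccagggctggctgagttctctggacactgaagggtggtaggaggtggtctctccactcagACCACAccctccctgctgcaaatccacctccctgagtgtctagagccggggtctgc
Crip1, chr12:113151762-113152011, plus strand: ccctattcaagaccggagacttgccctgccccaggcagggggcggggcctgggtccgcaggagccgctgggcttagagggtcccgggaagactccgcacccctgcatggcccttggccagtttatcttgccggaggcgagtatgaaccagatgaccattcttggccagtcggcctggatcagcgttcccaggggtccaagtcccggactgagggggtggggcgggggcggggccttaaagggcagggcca
S100a4, chr3:90603520-90603769, plus strand: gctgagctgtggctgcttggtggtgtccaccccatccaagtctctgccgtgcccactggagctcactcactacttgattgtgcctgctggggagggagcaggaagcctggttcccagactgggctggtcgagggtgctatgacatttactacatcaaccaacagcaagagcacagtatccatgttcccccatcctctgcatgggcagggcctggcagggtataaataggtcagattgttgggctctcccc
S100a6, chr3:90612644-90612893, plus strand: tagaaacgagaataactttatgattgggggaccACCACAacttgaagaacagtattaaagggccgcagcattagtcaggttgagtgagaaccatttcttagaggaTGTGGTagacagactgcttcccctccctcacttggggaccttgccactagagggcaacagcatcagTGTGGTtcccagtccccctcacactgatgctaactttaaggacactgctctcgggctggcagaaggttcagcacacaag

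S100a4, which binds non-muscle myosin, went from almost no reads to a low level with Runx1 WT. Mock libraries held 1 and 3 counts, Runx1 WT 109 and 94, Runx1 DN 0 and 3 and Satb1 1 and 3. The Runx1 WT libraries stood far above the other 6, which were at or under the 3 counts that a count of 0 allows. The ratio of summed counts, corrected for depth, was 52.3 (95% exact interval 20.1 to 194, counting error only). The fitted log2 fold change was 5.62 ± 0.51 SE (edgeR adjusted p = 4.43e-06). It ran from 4.46 with quantile normalization to 6.42 without mock replicate 2, which held 3 of the 4 mock counts. S100a4 passed the filter on low counts only through Runx1 WT, so it had to differ. Even there, at 3.89 and 3.36 CPM, it was a minor transcript: per kilobase, its mean in Runx1 WT was 7.33 CPM, against 1280 CPM for Lgals1.

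The neighbours of S100a4 in the S100 cluster stayed at 0 to 2 counts in every library. In mm9, S100a4 lies at 90407692 to 90409967 on the plus strand of chromosome 3, and its neighbours are S100a3, 1067 bp before it, and S100a5, 2476 bp after it. S100a3 had 1 count in all 8 libraries together and S100a5 had 0. S100a6, the next gene along, had 1 and 2 counts from mock cells, 0 and 2 from Runx1 WT cells, and 0 in the 4 other libraries. Among the table's S100 genes outside the 10, only S100a1 and S100a13 passed the filter, with 79 and 115 counts in total, and neither passed the test in any comparison.

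**Figure D2:**
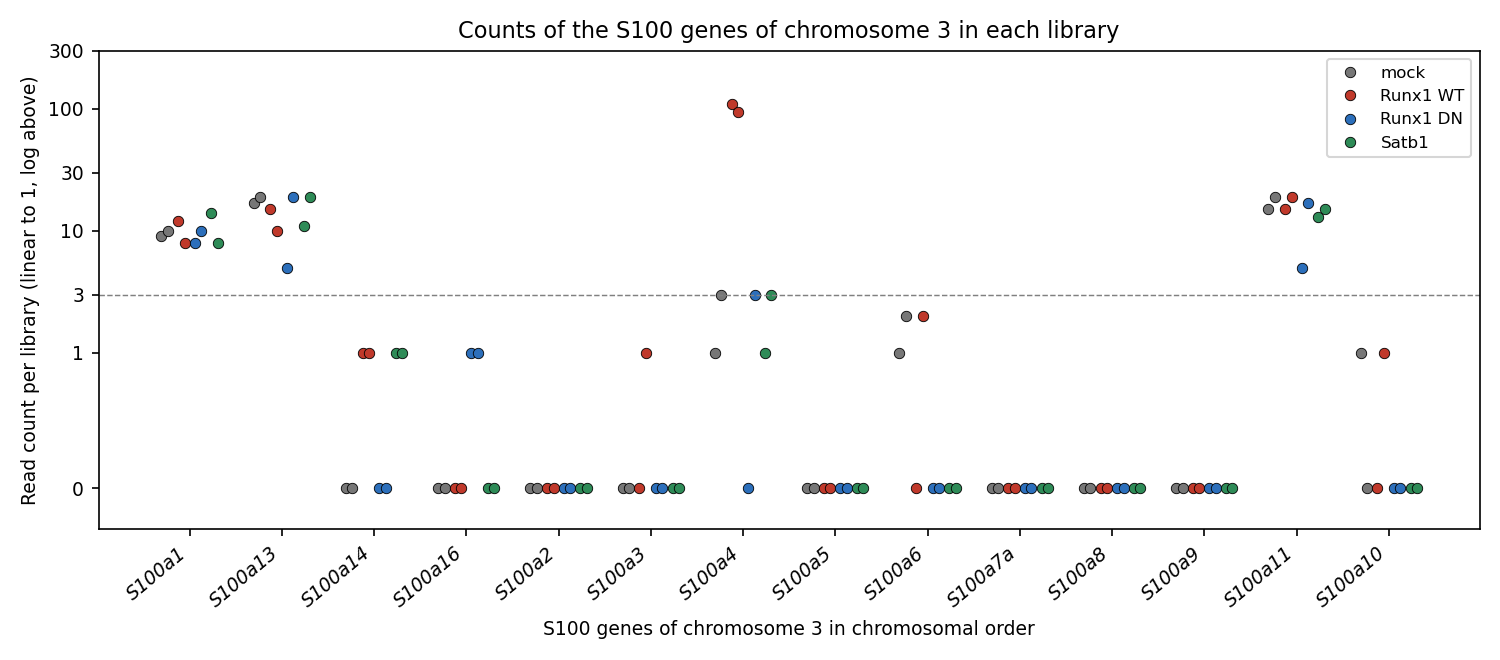
Read count per library (vertical axis, linear to 1 and logarithmic above) of the S100 genes of chromosome 3 in chromosomal order, with 2 points per group and a dashed line at 3 counts. S100a4 in the 2 Runx1 WT libraries, at 109 and 94 counts, stands above every other point, while S100a3, S100a5 and S100a6 on either side stay at 0 to 2 counts.

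S100a11 was detected at a low level in each group and passed the test in neither tested comparison. Mock libraries held 15 and 19 counts, Runx1 WT 15 and 19, Runx1 DN 5 and 17 and Satb1 13 and 15. In CPM, Satb1 lay just under mock and Runx1 WT, and the other groups overlapped. With Runx1 WT the log2 difference was 0.045 ± 0.44 SE (edgeR adjusted p = 0.934), with a 95% interval of -0.93 to 1.02. The low value in Runx1 DN came from replicate 1.

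Ahnak stood highest in mock and far lower in Runx1 DN and Satb1. The mock libraries stood at 80.2 and 90.6 CPM, Runx1 WT at 53.1 and 69.3, Runx1 DN at 25.1 and 17.8 and Satb1 at 27.7 and 16.4. Mock lay above Runx1 WT, and both lay above Runx1 DN and Satb1, which overlapped each other. The log2 difference from mock was -2 ± 0.23 (SE) in Runx1 DN and -1.96 ± 0.23 in Satb1. Between Satb1 and Runx1 DN it was 0.039 ± 0.24 (edgeR adjusted p = 0.915), with a 95% interval of -0.49 to 0.57. The Satb1 libraries differed 1.68-fold, and the sign turned without Satb1 replicate 1 (log2 -0.38) or without Runx1 DN replicate 2 (log2 -0.19).

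With Runx1 WT, Ahnak's log2 difference from mock was -0.48 ± 0.22 (SE), with an edgeR adjusted p = 0.0733, although the libraries did not overlap. It passed the threshold under 7 of the 20 alternative settings, over which its adjusted p ran from 0.00243 to 0.343. The authors' deposited table gives a log2 fold change of -0.584 with an adjusted p of 0.00028. Ahnak's transcript is long, 18093 bases of exon, so it drew many reads at a modest level per kilobase.

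Anxa2, a calcium-dependent membrane-binding protein and the partner of S100A10, varied least among the members that were clearly expressed. The mock libraries stood at 6.88 and 6.16 CPM, Runx1 WT at 5.53 and 4.61, Runx1 DN at 4.41 and 4.36 and Satb1 at 7.83 and 6.77. Satb1 and mock overlapped and lay above Runx1 WT, which in turn lay above Runx1 DN. Satb1 cells had 1.66 times the Anxa2 of Runx1 DN cells (log2 0.73 ± 0.16 SE, edgeR adjusted p = 0.00525). With Runx1 WT the log2 difference from mock was -0.36 ± 0.16 (SE, adjusted p = 0.0632), and it passed the threshold under 6 of the 20 alternative settings (adjusted p from 0.0012 to 0.295). The authors' deposited table gives -0.464 with an adjusted p of 0.0325. The difference from mock in Runx1 DN was -0.57 ± 0.16 and in Satb1 0.16 ± 0.15.

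S100a10, the usual partner of annexin A2, was not measurable here, with 1 count in mock replicate 1 and 1 in Runx1 WT replicate 2 as its whole total. Vim, the gene of the intermediate filament vimentin, gave 1 and 2 counts from mock cells, 0 and 1 from Runx1 WT cells, 2 and 9 from Runx1 DN cells and 1 and 1 from Satb1 cells. For Vim, 7 of the 8 libraries were under 3 counts, and the 9 counts of Runx1 DN replicate 2 stood alone. S100a6, S100a10 and Vim did not pass the filter on low counts and were not tested. Per kilobase of exon, the mock means were 275 CPM for Lgals1, 11.2 CPM for Emp3, 10.1 CPM for Crip1, 4.8 CPM for Anxa2, 4.72 CPM for Ahnak and 1.18 CPM for S100a11. S100a4, S100a6, S100a10 and Vim were at most at 0.135 CPM per kilobase, at or near the limit of detection. How reads that match several places were counted is not given in the sources used here.

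**Figure D3:**
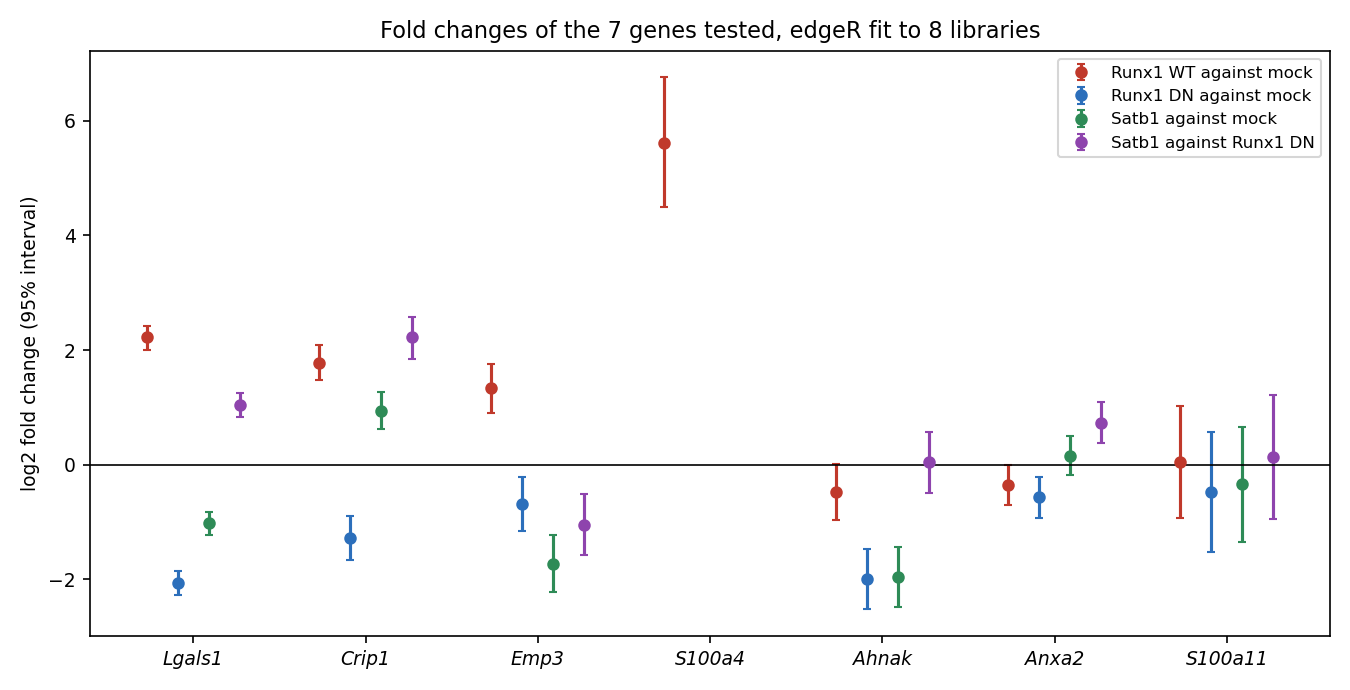
Fitted log2 fold change (vertical axis) of the 7 genes that passed the filter on low counts, with 95% intervals as bars, in 4 comparisons. For S100a4 only Runx1 WT against mock is drawn, since the other groups are at or under 3 counts in each library. Lgals1, Crip1, Emp3 and S100a4 lie above 0 with Runx1 WT, and in Satb1 against mock Crip1 lies above 0 while Lgals1, Emp3 and Ahnak lie below it.

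By count, 4 of the 7 tested members were called higher with Runx1 WT and 0 lower, beside 38.9% of all tested genes called higher and 31.8% called lower. S100a4 passed the filter only through the group where it is high, so this count is no support for the members as a set. In Satb1 against Runx1 DN, leaving out Lgals1, Crip1 and Anxa2 were called higher and Emp3 lower, beside 18.6% and 19.4% of all tested genes. Groups of 2 that did not overlap were common among all tested genes, at 84.6% with Runx1 WT, 69.2% with Runx1 DN, 51.8% with Satb1 and 70.5% in Satb1 against Runx1 DN. The orders of the 4 groups differed between Lgals1, Crip1, Emp3, Ahnak and Anxa2, each of which had its own.

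The 5 genes outside the group whose pattern was most like that of Lgals1 were Dok2, Greb1, Klhl6, Ms4a6b and Atp2a3. Likeness was Pearson's r of log2(CPM + 1) over the 8 libraries, among 605 genes with at least 10 CPM on average and an SD of at least 0.5 times that of Lgals1. The 8 points are 4 groups of 2, so r mainly compares 4 group levels, and 152 genes had an r of at least 0.9. Dok2, a docking adaptor of tyrosine kinase signalling, had an r of 0.996, with a mock mean of 17.5 ± 1.9 CPM (SD, n = 2), a Runx1 WT mean of 80.4 ± 7.3, a Runx1 DN mean of 3.28 ± 0.812 and a Satb1 mean of 6.12 ± 0.153. Atp2a3, a calcium pump of the endoplasmic reticulum, had an r of 0.99, with 47.8 ± 3.91, 335 ± 7.4, 15.5 ± 1.86 and 29.2 ± 2.49 CPM in the same order. Greb1 (0.994), Klhl6 (0.994) and Ms4a6b (0.991) came between them. Among the 10 genes themselves, r with Lgals1 was 0.891 for S100a4, 0.853 for Emp3, 0.827 for Crip1, 0.692 for Ahnak, 0.562 for S100a11 and 0.0166 for Anxa2. S100a4 had 0 to 3 counts in each library outside Runx1 WT, so its r rests on the Runx1 WT libraries and is no measure of likeness. The members were not held to the limits on level and SD set for the 605 genes. S100a11 and Anxa2 had an SD of 0.15 and 0.28, beside 1.68 for Lgals1, so their r says little. By ranks (Spearman), the correlation was 0.643 for S100a4, 0.762 for Emp3, 0.738 for Crip1, 0.667 for Ahnak, 0.429 for S100a11 and 0.286 for Anxa2.

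The listed binding partners of galectin-1 on T cells rose with Runx1 WT and fell with Runx1 DN in most cases. None of the tested enzymes that shape their glycans was called in both of these directions. Partners and enzymes are counted together here. Of 9 listed, 8 were tested: 6 rose and 0 fell with Runx1 WT, 0 rose and 6 fell with Runx1 DN, and 3 rose and 1 fell with Satb1. Of all tested genes, 38.9% rose and 31.8% fell with Runx1 WT, 17.5% rose and 16.9% fell with Runx1 DN, and 3.28% rose and 3.09% fell with Satb1. The median log2 fold change was 0.72 with Runx1 WT and -1.37 with Runx1 DN, beside 0.097 and 0.0021 over all tested genes. Cd7, a receptor for galectin-1, was at 1.16 CPM in mock and 679 CPM in Runx1 WT (log2 9.19 ± 0.13 SE, edgeR adjusted p = 2.08e-10), and it rose with Satb1 as well, to 14.9 CPM (adjusted p = 7.72e-07). Spn, which encodes CD43, rose with Runx1 WT (log2 1.74 ± 0.11, adjusted p = 3.11e-07) and fell with Runx1 DN (log2 -2.63 ± 0.13, adjusted p = 2.94e-07). Ptprc, which encodes CD45, moved likewise by 0.73 ± 0.085 (adjusted p = 2.71e-05) and -1.02 ± 0.086 (adjusted p = 1.24e-05). St3gal1, a sialyltransferase that caps O-glycans, fell from 129 CPM in mock to 15.9 CPM in Runx1 DN (log2 -3.03 ± 0.16, adjusted p = 5.67e-07), and with Runx1 WT its difference was 0.076 ± 0.14 (adjusted p = 0.647).

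The other galectins moved in both directions. Of 8 listed and tested, 4 rose and 3 fell with Runx1 WT, 1 rose and 2 fell with Runx1 DN, and 1 rose and 1 fell with Satb1. These counts stand beside 38.9% higher and 31.8% lower with Runx1 WT, and 17.5% and 16.9% with Runx1 DN, over all tested genes. With Satb1 the shares over all tested genes were 3.28% and 3.09%. The 4 that rose with Runx1 WT were Lgals8, Lgals2 and the overlapping rows Lgals4 and Lgals6, and without Runx1 WT replicate 1 the 3 that fell became 1. Lgals9, at 331 CPM in mock, fell with each construct, at log2 -0.61 ± 0.063 with Runx1 WT (edgeR adjusted p = 1.22e-05), -1.58 ± 0.065 with Runx1 DN (adjusted p = 9.54e-08) and -1.72 ± 0.065 with Satb1 (adjusted p = 7.72e-07). Lgals8 rose with Runx1 WT from 36.1 to 132 CPM (log2 1.87 ± 0.087, adjusted p = 6.24e-08), and its differences with Runx1 DN and Satb1 did not pass the test. Lgals3 fell with Runx1 DN (log2 -2.36 ± 0.47, adjusted p = 0.00329) and rose with Satb1 (log2 1.28 ± 0.3, adjusted p = 0.0328), a call lost without any 1 of the mock or Satb1 libraries. Lgals4 rose with Runx1 WT (log2 0.99, adjusted p = 0.000309), but its row overlaps that of the near-identical Lgals6, so the value is uncertain. Lgals12, the 1 that rose with Runx1 DN, had 0.016 CPM in mock and 0.573 CPM in Runx1 DN. It was tested only because of Runx1 DN, with 0 CPM in Runx1 WT and 0.149 CPM in Satb1, so it had to differ there. Lgals2 was tested only because of Runx1 WT, with 0.981 CPM there and no counts in the other groups. Lgals3 and Lgals7, which also fell with Runx1 WT, were low. Lgals3 went from 1.01 CPM in mock to 0.375 CPM. Lgals7 went from 0.174 CPM in mock to 0.0179 CPM, near or under the limit of 3 counts. In Runx1 DN and Satb1, Lgals7 stood at 0.343 and 0.374 CPM.

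Actin cytoskeleton genes mostly rose with Runx1 WT and moved in both directions with Runx1 DN. Of 36 listed, 35 were tested: 22 rose and 4 fell with Runx1 WT, 6 rose and 15 fell with Runx1 DN, and 2 rose and 1 fell with Satb1. Over all tested genes, 38.9% rose and 31.8% fell with Runx1 WT. With Runx1 DN, 17.5% rose and 16.9% fell, so the share of the list that rose there was near that of all genes. With Satb1, 3.28% of all tested genes rose and 3.09% fell, and the few calls of the list were near these shares. The median log2 fold change was 0.4 with Runx1 WT and -0.15 with Runx1 DN, beside 0.097 and 0.0021 over all tested genes. Without mock replicate 2 the 15 that fell with Runx1 DN became 8, and without Runx1 DN replicate 1 they became 9. The 6 that rose became 3 without mock replicate 1. The 4 that fell with Runx1 WT became 2 without mock replicate 2 and 7 when only the groups compared were fitted. In Satb1 the 2 that rose became 1 without any 1 of the mock, Runx1 WT or Satb1 libraries, and the 1 that fell became 0 without mock replicate 2 or either Satb1 library and 2 without Runx1 DN replicate 1. Cnn2 (calponin 2) rose from 17.6 to 121 CPM with Runx1 WT (log2 2.77 ± 0.096, edgeR adjusted p = 1.35e-08), and Coro1a (coronin 1A) from 49.9 to 193 CPM (log2 1.95 ± 0.11, adjusted p = 2.19e-07). Tagln2 (transgelin 2) fell with Runx1 DN (log2 -1.52 ± 0.078, adjusted p = 4.51e-07), and so did Ezr (ezrin, log2 -0.76 ± 0.067, adjusted p = 1.82e-05). Lsp1, a leukocyte actin-binding protein, rose with both Runx1 WT (log2 3.25 ± 0.22, adjusted p = 6.56e-07) and Runx1 DN (log2 3.49 ± 0.22, adjusted p = 2.01e-06).

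Among annexins other than Anxa2, 4 of 11 were tested. Anxa6 and Anxa7 rose with Runx1 WT, by log2 1.21 ± 0.073 (edgeR adjusted p = 3.05e-07) and 0.79 ± 0.077 (adjusted p = 7.45e-06), beside 38.9% of all tested genes. With Runx1 DN, Anxa6 rose as well (log2 0.61 ± 0.073, adjusted p = 0.000158). Anxa11 fell there (log2 -0.98 ± 0.067, adjusted p = 3.29e-06), as did Anxa9 (log2 -0.85 ± 0.27, adjusted p = 0.0329). Over all tested genes 17.5% rose and 16.9% fell with Runx1 DN. With Satb1, Anxa9 and Anxa11 were called lower (adjusted p = 0.0435 and 0.0265), beside 3.09% of all tested genes. Of 16 intermediate filament and lamin genes other than Vim, 6 were tested, and 1 rose and 4 fell with Runx1 WT, beside 38.9% and 31.8% of all tested genes. Their median log2 fold change was -1.28, beside 0.097 over all tested genes. Lmna rose (log2 2.63 ± 0.26, adjusted p = 7.74e-06) and Lmnb1 fell (log2 -1.8 ± 0.076, adjusted p = 3.91e-08), while with Runx1 DN Lmna rose (log2 1.34 ± 0.28, adjusted p = 0.00472) and Nefh fell (log2 -1.15 ± 0.1, adjusted p = 1.64e-05).

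**Figure D4:**
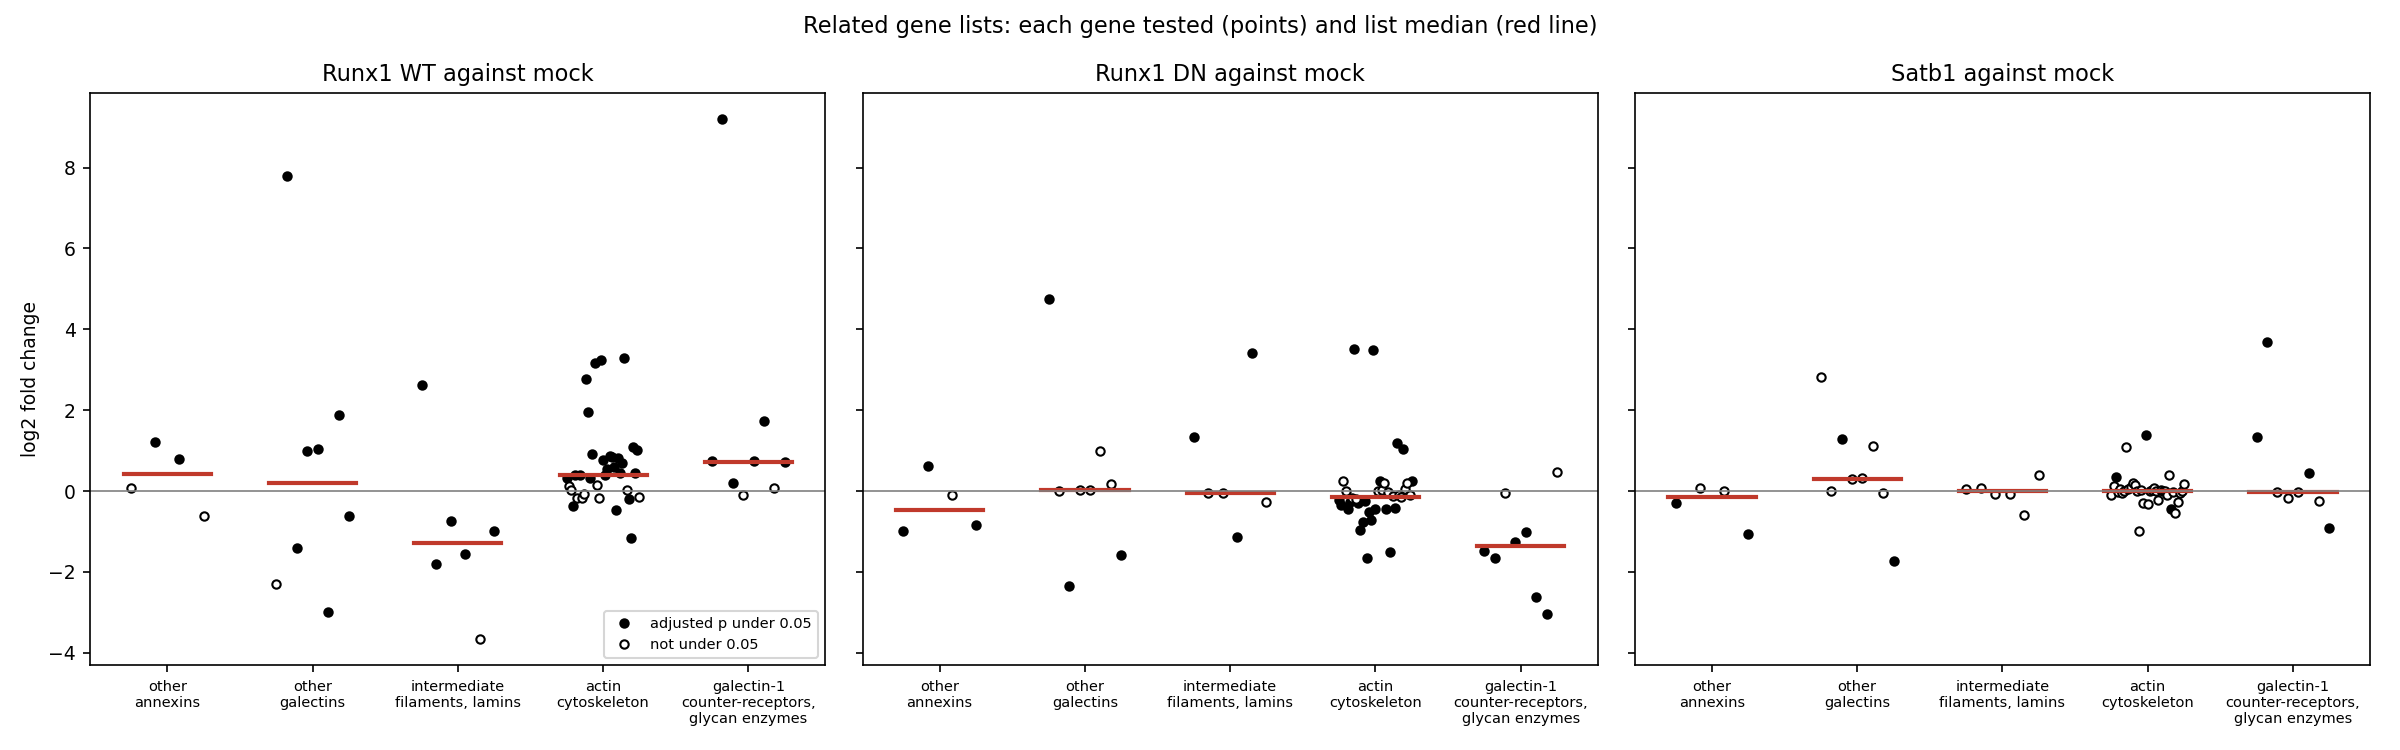
Log2 fold change against mock (vertical axes) of each tested gene of 5 related lists, without the 10 genes themselves, with Runx1 WT, Runx1 DN and Satb1 from left to right. Filled points have an adjusted p under 0.05 and red lines mark list medians. The galectin-1 counter-receptors and glycan enzymes have medians of 0.72 with Runx1 WT and -1.37 with Runx1 DN, and the other galectins scatter on both sides of 0.

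Markers of other cell types were read beside these results, and their part in them was not tested. The 8 NK and ILC markers summed to 108 and 120 CPM in mock cells, 397 and 426 in Runx1 WT cells, 10.3 and 12.7 in Runx1 DN cells and 48.2 and 52.2 in Satb1 cells, the same order of groups as Lgals1. Most of this was Gzma, with 2816 and 3742 counts in mock, while Klrd1 had 0 counts in every library. The 11 myeloid markers summed to 9.64 and 11.6 CPM in mock cells, 71.9 and 76.4 in Runx1 WT cells, 20.2 and 22.8 in Runx1 DN cells and 14.6 and 21.4 in Satb1 cells, with Itgam as the largest part. Of the 4 tested, Csf1r, Cd68 and Itgam were called higher with Runx1 WT, beside 38.9% of all tested genes. Csf1r, Itgam and Adgre1 were called higher with Runx1 DN, beside 17.5% of all tested genes. Adgre1 passed the filter on low counts only through Runx1 DN, and Csf1r only through the Runx1 groups, so they had to differ there. The Csf1r row held 0 counts in both mock libraries, 81 and 60 from Runx1 WT cells, 11 and 23 from Runx1 DN cells, and 3 and 2 from Satb1 cells, while Lyz2 had at most 4 counts in any library. The 10 fibroblast markers, whose cells express Lgals1, Vim and the S100 genes at high levels, summed to 24.5 and 26.9 CPM in mock and to between 87.6 and 113 CPM in the other 3 groups. Nearly all of it was Pdgfrb, which was called higher in all 3. Col1a1 (log2 2.36, edgeR adjusted p = 0.0148) and Col1a2 (log2 1.77, adjusted p = 0.0106) were also called higher in Runx1 DN, at 0.647 and 1.29 CPM. Col1a1 passed the filter on low counts only through Runx1 DN, so it had to differ there. The 3 tested markers were thus all called higher there, beside 17.5% of all tested genes. Without mock replicate 1 the 3 became 1. Lum and Twist1 had 0 counts in all 8 libraries, Col3a1 had 1 in all, and Vim was near 0 as given above. The 8 B lineage markers summed to at most 1.57 CPM.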

How the data were processed

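RNA-seq counts of 8 libraries from Scid.adh.2c2 cells (50 nt single reads, a kit that does not mark strand, total RNA of 300000 cells) were analysed in 4 groups of 2, set by the labels. The deposited values are read counts over gene exons, made by the authors with HOMER in mm9 without adjustment and with the transcripts of a gene merged, per the file headers. The submitters' processing notes name HOMER, edgeR 3.6.8, STAR 2.4.0, Trimmomatic 033 and RSEM 1.2.25. The authors' deposited table also gives log2 fold changes, p-values and adjusted p-values against mock. Each of the table's per-sample columns matched a sample of the series.

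Here, edgeR 4.0.16 (R 4.3.3) was run on all 8 libraries together: filterByExpr (minimum count 10, minimum total 15), TMM scaling, and the quasi-likelihood test on group means, two-sided, p-values adjusted by Benjamini-Hochberg across the 12699 genes that passed, threshold 0.05. There were 4 residual degrees of freedom and the common biological coefficient of variation was 0.0818. DESeq2 1.42.0, limma 3.58.1 voom and other scalings, filters and left-out libraries were alternatives, and the test was checked on simulated data. CPM are on the TMM scale; per-kilobase values use the table's exon lengths. Totals of 23624498 to 33093330 counts set the precision; floors (3 counts) and 95% counting intervals cover counting error alone, as PCR copies were not marked by molecular identifiers. Strand was not used, so overlapping genes cannot be separated.

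The members, the lists and the tests were chosen with earlier results of these data known. Genes named are the 10 members, Runx1 and Satb1, other S100 genes with at least 10 counts in total, up to 3 genes per list and comparison with the smallest adjusted p, the 5 genes most like Lgals1, and neighbouring rows. Single marker genes were named after their values were seen. The lists were other S100 genes, other annexins, other galectins, intermediate filaments and lamins, actin cytoskeleton, EMP and CRIP relatives (Crip2 alone of 9 was tested), galectin-1 counter-receptors and glycan enzymes, glycolysis and hypoxia, and markers of T lineage, fibroblast, myeloid, B lineage and NK and ILC cells. Promoter windows come from RefSeq (GRCm38.p6); gene coordinates are mm9 and were not converted.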

Additional observations from a re-analysis of the deposited data

How the results depend on the processing

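Lgals1, Crip1 and Emp3 kept their direction and their call with Runx1 WT under the 20 alternatives run, as did Crip1 and Anxa2 in Satb1 against Runx1 DN. S100a4, which passed the filter only through Runx1 WT, had to differ there, so its calls say nothing of stability. Lgals1's log2 fold change with Runx1 WT ran from 2.11 to 2.6. With Runx1 WT, 4 members (S100a4 among them) were called, 4 to 5 when each library in turn was left out and up to 6 under other scalings. Of the tested members' values in these comparisons, 13 passed the threshold newly (Ahnak and Anxa2 with Runx1 WT), 2 lost it (Emp3) and 14 reversed.

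The reversals were of differences that did not pass the test. S100a11 with Runx1 WT went to -0.0047 with DESeq2 size factors, -0.88 with quantile normalization, -0.003 with DESeq2 and -0.037 when only the groups compared were fitted, and ran from -0.13 to 0.21 over the left-out libraries. Ahnak in Satb1 against Runx1 DN went to -0.0097 with upper-quartile scaling and -0.032 with library size alone, and to -0.19 and -0.38 over left-out libraries, whose range was -0.38 to 0.37. S100a4 in that comparison went to -0.69 and -0.68 without Runx1 DN replicate 1 or Satb1 replicate 2, and to -0.67 without the mock and Satb1 libraries numbered 2, and S100a11 went to -0.41 in a range of -0.41 to 1.14 over left-out libraries. The cause was not tested.

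Over all genes, Satb1 against mock gave 808 calls, 430 to 839 with each library left out in turn, and 314 without the mock and Satb1 libraries numbered 2. Runx1 DN against mock gave 4375, 2908 to 4675 with each library left out, and 2715 without those libraries. Satb1 against Runx1 DN gave 4825, and 3022 without them. Fewer samples were fitted in each of these. Quantile normalization turned the split of calls with Runx1 WT from 4943 higher and 4032 lower to 4043 and 4947, and moved the median of all genes from 0.097 to -0.11; library size alone gave 5651 and 3436 and a median of 0.22. In Runx1 DN the split of 2227 and 2148 became 2901 and 1515 with library size alone and 2709 and 1693 with upper-quartile scaling; in Satb1 against Runx1 DN, 2360 and 2465 became 1692 and 3070 with library size alone.

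Groups share replicate numbers, and same-numbered libraries deviated together by correlations of 0.098 (Runx1 WT and Satb1) to 0.59 (mock and Satb1). A correlation over 0.1 in every pair of groups was required to take the numbers as pairing, and 1 pair of groups fell just short. The labels name no shared batch, so whether the numbers mark one is not known. With the replicate block, Satb1 against mock gave 1265 calls and Anxa2 with Runx1 WT had an adjusted p of 0.0311. S100a6, S100a10 and Vim lie at the limit of depth.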
